A study of Macaca fascicularis with 16 samples.

Results

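The complement genes described here are 10 genes expressed by blood leukocytes, chosen by symbol: C1QA, C1QB, C1QC, CFD, CFP, C3AR1, C5AR1, CR1, CD55 and CD59. All 10 were present among the 23602 gene symbols of the deposited count tables. They were measured by RNA sequencing in PBMC, the unfractionated mononuclear cells of peripheral blood, from 4 cynomolgus macaques of Mauritian origin, named LG04, LG11, LG12 and LG15. Each animal was bled before NKTT320, a monoclonal antibody against the invariant receptor of invariant natural killer T cells, and again 30 minutes, 2 hours and 1 day after it, which gave 4 libraries per time and 16 in all. All 4 animals received the antibody and untreated animals were not analysed here, so the antibody, the passage of time and repeated bleeding cannot be told apart. The sources used here give no ages, sexes or doses. The counts rest on human gene models, so a gene that differs much between macaque and human can be undercounted.

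Complement is a cascade of plasma proteins that marks microbes, immune complexes and dying cells. It is started by C1q bound to antibody (classical pathway), by lectins, or by spontaneous turnover of C3 that is amplified by factor B, factor D and properdin (alternative pathway). The liver makes most of the plasma components, while myeloid cells are the main source of C1q and properdin. Leukocytes read the cascade through receptors for its fragments and protect their own surface with membrane-bound regulators.

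Library totals ranged from 1417467 to 8582852 counts, and globin genes took between 0.025% and 48.7% of them. Because globin took 20.3%, 38.2%, 48.7% and 13.6% of the libraries labelled LG04 at pre-treatment, 30 minutes, 2 hours and 1 day, plain CPM (the count scaled to the library total) of other genes were diluted in that animal. Fold changes come from the fit with TMM normalization, and directions that differ once globin is left out are named. The library labelled LG04 at 1 day went against its label. Of 5 genes on in the 3 earlier LG15 libraries and near 0 in those of LG04, EYA4 and SHISA4 had 103.5 and 83.4 CPM in it, and the other 3 had 4.88 to 10.8 CPM. The LG04-type genes HBQ1 and KIAA1045 had 1.08 and 0.54 CPM in it. Its closest library was LG15 at 1 day (chi-square per gene 11.3) and it was 88.1 to 157.6 from the other LG04 libraries. Such distances also occur within an animal: the other LG04 libraries were 32.8 to 168.0 from each other, and LG15 at 1 day was 36.9 to 138.7 from the other LG15 libraries. Every value at 1 day is therefore also given without that library where it bears on a result. Markers of T cells, B cells, NK cells, monocytes and platelets were detected in every library, and the summed CPM of 14 neutrophil markers ranged from 140.3 to 4777.

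Per length, in the deposited FPKM, the genes differed widely. CFP (properdin) had the highest median over the 16 libraries, 58.1 FPKM. CD55 followed with 30.0 FPKM, C5AR1 with 24.3, C3AR1 with 13.3 and CR1 with 8.22. CFD, C1QB and CD59 had medians of 5.23, 3.49 and 2.51 FPKM, and C1QC and C1QA 1.27 and 1.09. Neighbours in this order were mostly not separated: CD55 was above C5AR1 in 8 of 16 libraries, and CFD above C1QB in 9 of 16. C5AR1 was above C3AR1 in 15 of 16, and CD55 above CD59, the other membrane regulator, in 16 of 16. The spread over libraries also differed. The highest FPKM was 38.1 times the lowest for C5AR1 and 24.4 times for CFP, against 2.90 times for CD59, 3.77 times for CR1 and 3.84 times for CD55.

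No complement gene passed the test for a change with time. In edgeR's quasi-likelihood fit with animal as a term, 8 of the 10 genes passed the filter on low counts (C1QA and C1QC did not), and 0 of the 8 had a Benjamini-Hochberg adjusted p under 0.05 over the 4 times, where 0.104% of all 11545 genes tested did. The count was 0 of 8 at 30 minutes against pre-treatment (0% of all genes), at 2 hours (0%) and at 1 day (0.225%). It was also 0 of 8 at 2 hours against 30 minutes (0%) and at 1 day against 2 hours (0.104%). DESeq2 also called 0 of them in each comparison. Of the genes it adjusted it called 3.42% over the 4 times, 0.17% at 30 minutes, 0.577% at 2 hours, 3.07% at 1 day, 0.0744% at 2 hours against 30 minutes and 0.768% at 1 day against 2 hours, and it gave C1QB and CFD no adjusted p at 30 minutes. At an unadjusted p under 0.05 the edgeR fit had 1 gene over the 4 times (CR1, against 12.2% of all genes), 1 at 30 minutes (CR1, 2.53%), 2 at 2 hours (C3AR1 and C5AR1, 7.43%) and 0 at 1 day (13.6%). At 2 hours against 30 minutes it had 1 (CR1, 4.6%) and at 1 day against 2 hours 0 (12.6%). The values below are therefore descriptions of these 4 animals, with intervals from the scatter left after the animal and time terms.

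With all libraries under their labels, for 6 of the 8 genes tested more of the variation was between animals than was left to time and the rest together. Animal accounted for 70.3% of the sum of squares of log2 CPM for CR1 and 70.3% for C3AR1, 69.5% for C1QB, 62.7% for C5AR1 and 62.2% for CD59. It accounted for 50.4% for CFP, 48.9% for CD55 and 42.3% for CFD, against a median of 46.3% over all genes tested. Time accounted for 18.3% for CR1, 14.5% for C5AR1 and 11.9% for C3AR1, against a median of 12.2%. For CFD, 53.8% was left to neither animal nor time. The split kept the library that went against its label under that label. How far these percentages depend on that library, and whether CFP at 50.4% stays among the 6 genes without it, was not tested.

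**Figure D1:**
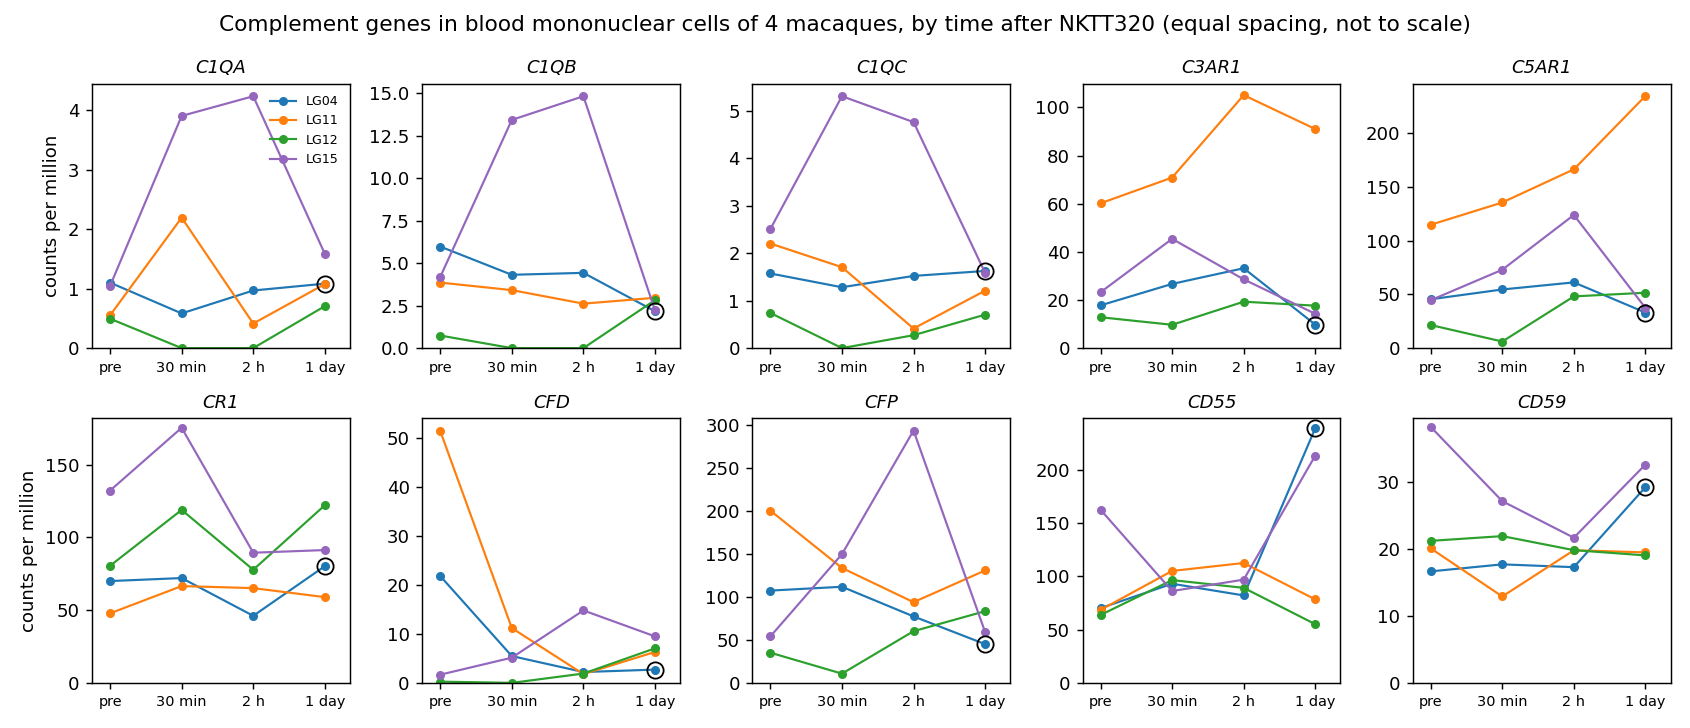
CPM of each complement gene (vertical axis, from 0) at pre-treatment, 30 minutes, 2 hours and 1 day (horizontal axis, not to scale), with 1 line per animal. The circled point is the library labelled LG04 at 1 day. C5AR1 and C3AR1 were above their own pre-treatment level at 2 hours in 4 of 4 animals, and CFD ran in opposite directions in different animals.

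C5AR1 and C3AR1 are the receptors for the anaphylatoxins C5a and C3a, the small fragments that recruit and activate myeloid cells. Both were higher at 2 hours than before treatment in 4 of 4 animals, without passing the threshold over all genes. C5AR1 had 45.4, 54.5, 61.1 and 33.0 CPM in LG04 at pre-treatment, 30 minutes, 2 hours and 1 day. In the same order it had 114.7, 135.4, 166.2 and 234.5 CPM in LG11, 21.5, 6.12, 48.1 and 51.5 CPM in LG12, and 44.5, 72.9, 123.8 and 37.4 CPM in LG15. LG11 was the highest animal at every time, and the groups overlapped at all times. At 2 hours C5AR1 was 1.23 ± 0.42 log2 units higher than at pre-treatment (SE; 95% interval 0.32 to 2.14; edgeR adjusted p = 0.507; higher in 4 of 4 animals). At 1 day the difference was 0.73 ± 0.43 (adjusted p = 0.528; edgeR), and 1.04 ± 0.40 without the library labelled LG04 at 1 day (adjusted p = 0.315).

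C3AR1 had 17.8, 26.7, 33.2 and 9.75 CPM in LG04 at pre-treatment, 30 minutes, 2 hours and 1 day. It had 60.2, 70.9, 105.1 and 91.0 CPM in LG11, 12.8, 9.69, 19.3 and 17.6 CPM in LG12, and 23.2, 45.4, 28.6 and 14.3 CPM in LG15. LG11 again stood above the other animals at each time, and LG12 had the lowest value at pre-treatment, 30 minutes and 2 hours. At 2 hours C3AR1 was 1.01 ± 0.35 log2 units higher than at pre-treatment (SE; 95% interval 0.24 to 1.77; edgeR adjusted p = 0.520; higher in 4 of 4 animals). Against pre-treatment the difference at 1 day was 0.21 ± 0.37, and 0.52 ± 0.32 without the library labelled LG04 at 1 day (edgeR adjusted p = 0.903 and 0.556). At 1 day it was lower than at 2 hours in 4 of 4 animals as labelled, with a log2 difference of -0.79 ± 0.37 (edgeR adjusted p = 0.398). The change was -2.59 log2 units to the library labelled LG04 at 1 day, against -0.60, -0.19 and -0.08 in LG15, LG11 and LG12. Without that library the fitted difference was -0.45 ± 0.32.

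The summed CPM of 12 classical monocyte markers (CD14, S100A8, VCAN, LYZ and others) was 2512, 6205, 1325 and 7620 at 2 hours in LG04, LG11, LG12 and LG15, against 3191, 2214, 503.9 and 1816 before treatment. In plain CPM the sum was thus higher in LG11, LG12 and LG15 and lower in LG04, where both receptors were higher. With globin left out it was also higher in LG04, with 4896 at 2 hours against 4004 before treatment. In the fit all 12 were higher at 2 hours, with a median of 1.27 log2 units, against 0.02 over all genes and 0.47 over the 8 complement genes. None of the 12 passed the adjusted threshold. In bulk PBMC, more cells of a type and more RNA per cell cannot be told apart, and the part of monocytes in the receptors' values was not tested.

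CR1 encodes complement receptor 1, which binds C3b and C4b, carries immune complexes and speeds the decay of the C3 convertases. It is found on B cells, monocytes and granulocytes, and on red cells in humans. With all libraries under their labels, CR1 was the complement gene with the least scatter left after animal and time (11.4% of the sum of squares). It had 69.9, 72.0, 46.1 and 80.2 CPM in LG04 at pre-treatment, 30 minutes, 2 hours and 1 day. It had 47.8, 66.5, 65.1 and 58.9 CPM in LG11, 80.4, 118.8, 77.7 and 122.0 CPM in LG12, and 132.1, 175.2, 89.4 and 91.2 CPM in LG15. Each animal was higher at 30 minutes than before treatment, although the groups overlapped. The fitted difference at 30 minutes was 0.54 ± 0.16 log2 units (SE; 95% interval 0.19 to 0.89; unadjusted p = 0.00542, edgeR adjusted p = 1.000, DESeq2 adjusted p = 0.642; higher in 4 of 4 animals). At 2 hours CR1 was lower than at 30 minutes in 4 of 4 animals, with a log2 difference of -0.42 ± 0.16 (unadjusted p = 0.0219, edgeR adjusted p = 0.998). At 2 hours against pre-treatment its fitted difference was 0.12 ± 0.16, with 1 of 4 animals higher in plain CPM and 2 of 4 once globin was left out. At 1 day it was 0.34 ± 0.16 (edgeR adjusted p = 0.399) and 0.36 ± 0.18 without the library labelled LG04 at 1 day.

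In the RefSeq annotation of the macaque genome (assembly T2T-MFA8v1.1), CD55, CR2, CR1 and CR1L lie in a row. CR2, which encodes the B-cell receptor for C3d, and CR1L, a close copy of CR1, were looked at after their values were seen. CR1L was 0.48 ± 0.19 log2 units higher at 30 minutes than at pre-treatment (edgeR adjusted p = 1.000), and its difference at 2 hours against 30 minutes was -0.54 ± 0.19 (adjusted p = 0.986). CR2 was 0.48 ± 0.22 higher at 30 minutes (edgeR adjusted p = 1.000), and its difference at 2 hours against 30 minutes was -0.94 ± 0.23 (unadjusted p = 0.0012, adjusted p = 0.841). CR1 and CR1L share near-identical repeats, so how reads were divided between them is uncertain. In the fit B-cell markers ran the same way: all 8 were higher at 30 minutes (median 0.33 log2 units). All 8 were lower at 2 hours than at 30 minutes (median -0.76), with 0 of 8 called. Their mean log2 CPM rose and then fell in LG04, LG11 and LG15. In LG12 it was 6.06, 6.05 and 6.23 at pre-treatment, 30 minutes and 2 hours, where CR1 rose and then fell. At 30 minutes 12 of 12 classical monocyte, 12 of 13 neutrophil and 10 of 10 red-cell markers were also higher. Of these, 0, 6 and 2 were lower at 2 hours than at 30 minutes. NK-cell markers ran the other way, with 8 of 8 lower at 30 minutes and 8 of 8 higher at 2 hours than at 30 minutes. Among 10 T-cell markers, 6 were lower at 30 minutes and all 10 at 2 hours against 30 minutes. The part of these cells in the CR1 values was not tested.

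**Figure D2:**
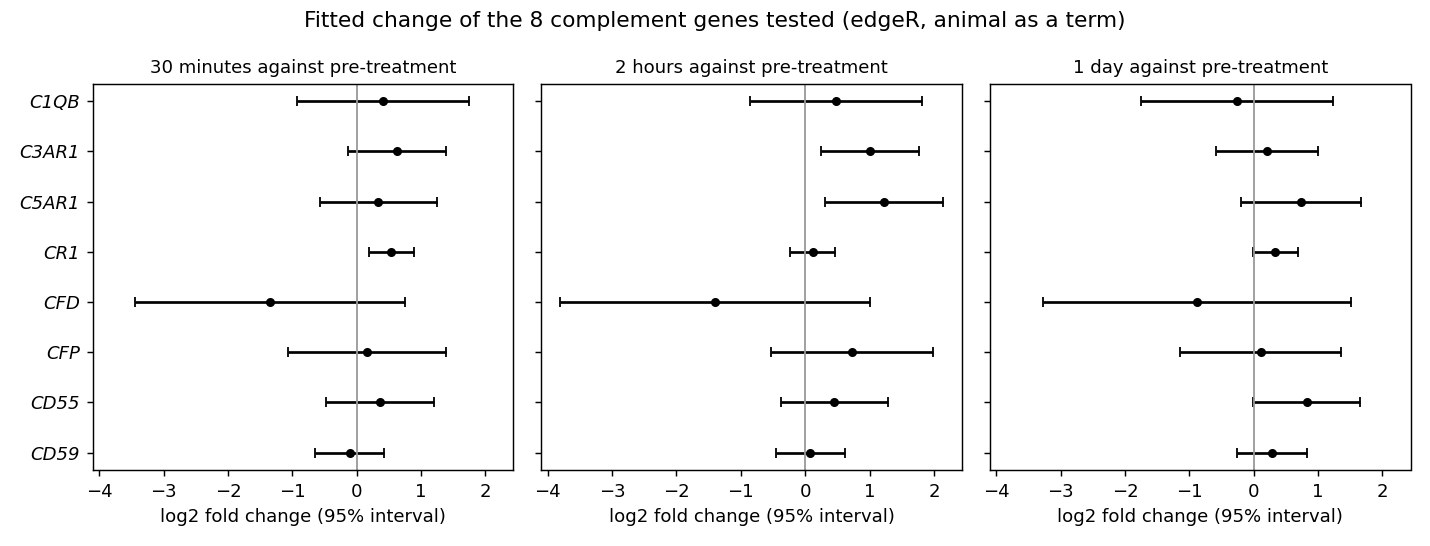
Fitted log2 fold changes (horizontal axis) of the 8 complement genes tested, at 30 minutes, 2 hours and 1 day against pre-treatment, with 95% intervals as bars and a line at 0. Intervals clear of 0 are those of CR1 at 30 minutes and of C3AR1 and C5AR1 at 2 hours, and the widest are those of CFD.

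CD55 and CD59 encode lipid-anchored proteins that protect host cells: CD55 (decay-accelerating factor) dissociates the C3 convertases, and CD59 blocks assembly of the membrane attack complex. CD55 had 70.1, 93.0, 82.0 and 238.9 CPM in LG04 at pre-treatment, 30 minutes, 2 hours and 1 day. It had 68.4, 105.0, 112.4 and 78.3 CPM in LG11, 63.7, 96.4, 89.1 and 55.0 CPM in LG12, and 162.4, 86.1, 96.8 and 213.2 CPM in LG15. LG04, LG11 and LG12 were higher at 30 minutes than before treatment and LG15 was lower. The largest values were those of LG15 and of the library labelled LG04 at 1 day. At 1 day CD55 was 0.82 ± 0.39 log2 units higher than at pre-treatment (SE; 95% interval -0.01 to 1.66; edgeR adjusted p = 0.379; higher in 3 of 4 animals). Without the library labelled LG04 at 1 day the difference was 0.59 ± 0.40 (edgeR adjusted p = 0.603), with 2 of 3 animals higher.

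CD59 had the smallest ratio of highest to lowest FPKM of the genes detected in every library, and lay between 12.9 and 38.3 CPM in all 16 libraries. It averaged 25.1 ± 6.9 CPM at 1 day and 24.1 ± 9.7 CPM before treatment (SD, n = 4 each). The fitted differences from pre-treatment were -0.11 ± 0.25, 0.08 ± 0.25 and 0.28 ± 0.25 log2 units at 30 minutes, 2 hours and 1 day, and 0.26 ± 0.28 at 1 day without the library labelled LG04 at 1 day. In plain CPM 1 of 4 animals was higher at 1 day, and 2 of 4 once globin was left out. The intervals of the fitted mean at these times reached from -0.65 to 0.43, from -0.46 to 0.61 and from -0.26 to 0.82. A mean change of 1 log2 unit in either direction lies outside each, but single animals varied more. At 2 hours LG04, LG11, LG12 and LG15 changed by 1.075, 0.019, -0.080 and -0.719 log2 units. At 1 day the change was 0.99 in the library labelled LG04, and 0.017, -0.092 and 0.264 in LG11, LG12 and LG15.

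Platelet markers ran with both regulators in part of the animals. The summed CPM of 10 platelet markers (PPBP, PF4, GP9 and others) was 898.2 in LG11, 1235 in LG12, 21395 in LG15 and 26806 in the library labelled LG04 at 1 day. Before treatment it was 155.9, 167.5, 11133 and 380.8 CPM in LG11, LG12, LG15 and LG04. LG15 had its highest CD55 values at pre-treatment and 1 day, the times at which its platelet sum was also highest. In LG12, by contrast, CD55 was lower at 1 day than before treatment (55.0 CPM against 63.7 CPM) while the platelet sum was higher. Centred on each animal's mean, log2 CPM of CD55 and the mean of the platelet markers had a Pearson's r of 0.771 over the 16 libraries (0.697 without the library labelled LG04 at 1 day), and CD59 0.761 (0.755). These were not particular to platelet markers. With SLC40A1, the 1 tissue macrophage marker tested, CD55 had an r of 0.750 (0.684 without that library) and CD59 0.747 (0.724). The libraries share animals, depth and cell composition, so these r values are descriptions, and the part of platelets was not tested.

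**Figure D3:**
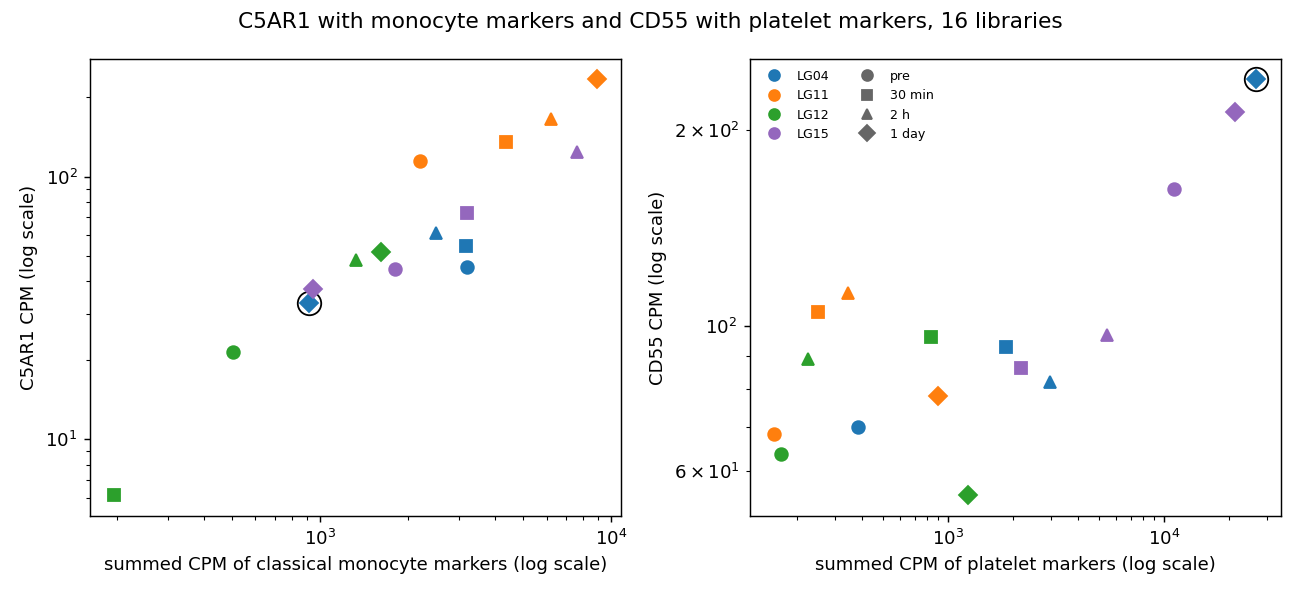
C5AR1 CPM against the summed CPM of classical monocyte markers, and CD55 CPM against that of platelet markers, on log scales, with colours for animals and shapes for times. The circled point is the library labelled LG04 at 1 day. The LG11 library at 1 day is highest for C5AR1 and for monocyte markers. The 2 libraries highest for CD55 and for platelet markers are LG15 at 1 day and the circled one. The circled library went against its label and was closest to LG15 at 1 day, so whether these 2 come from different animals is uncertain.

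CFP and CFD belong to the alternative pathway: properdin, encoded by CFP, stabilises its C3 convertase, and factor D, encoded by CFD, is the protease that cleaves factor B. CFP had 107.2, 111.6, 77.2 and 45.0 CPM in LG04 at pre-treatment, 30 minutes, 2 hours and 1 day. It had 200.1, 133.5, 93.7 and 130.6 CPM in LG11, 35.0, 10.7, 60.0 and 83.2 CPM in LG12, and 53.9, 149.5, 293.1 and 58.9 CPM in LG15. Its highest value was thus in LG15 at 2 hours, while LG11 was lower at each later time than before treatment. The fitted differences were 0.16 ± 0.57, 0.72 ± 0.58 and 0.11 ± 0.58 log2 units at 30 minutes, 2 hours and 1 day, with 2 of 4 animals higher each time. Once globin was left out, 3 of 4 animals were higher at 2 hours. Without the library labelled LG04 at 1 day the difference at 1 day was 0.43 ± 0.59.

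CFD ran in opposite directions in different animals. It had 51.5, 11.2, 1.79 and 6.32 CPM in LG11 and 21.8, 5.48, 2.21 and 2.71 CPM in LG04 at pre-treatment, 30 minutes, 2 hours and 1 day. In LG15 it had 1.67, 5.15, 14.8 and 9.50 CPM, and in LG12 0.25, 0, 1.90 and 7.06 CPM, where a count of 0 at 30 minutes allows up to 1.53 CPM. LG11 and LG04 were thus lower at each later time than before treatment, and LG15 was higher at each. The fit averaged these to -1.35 ± 0.97, -1.39 ± 1.11 and -0.88 ± 1.11 log2 units at 30 minutes, 2 hours and 1 day (edgeR adjusted p = 1.000, 0.818 and 0.851). Without LG11, the animal with the largest CFD count, the differences at 2 hours and 1 day were 0.20 and 0.67. Without the library labelled LG04 at 1 day, the difference at 1 day was -0.44 ± 1.24.

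C1QA, C1QB and C1QC encode the 3 chains of C1q, the recognition unit of the classical pathway, made by monocytes in small amounts and by macrophages and dendritic cells in larger ones. C1QA and C1QC had the lowest median FPKM of the 10 genes, while C1QB lay above CD59. Counts per library ran from 0 to 25 for C1QA, 0 to 86 for C1QB and 0 to 34 for C1QC, and 6 of 16 libraries were at or under 3 counts for C1QA. C1QB was above C1QA in FPKM in 14 of 16 libraries and above C1QC in 14 of 16. In the RefSeq annotation the 3 genes lie next to each other with 0 other coding genes between them. Summed over the 3 genes, LG15 had 37, 145, 45 and 17 counts at pre-treatment, 30 minutes, 2 hours and 1 day, or 7.74, 22.6, 23.8 and 5.39 CPM. LG04 had 8.64, 6.18, 6.92 and 4.88 CPM in the same order, LG11 6.61, 7.31, 3.44 and 5.25 CPM, and LG12 1.97, 0, 0.27 and 4.23 CPM. The high values at 30 minutes and 2 hours were those of LG15, and LG12 had 0 counts of all 3 chains at 30 minutes and 1 count at 2 hours.

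The fitted differences of C1QB from pre-treatment were 0.41 ± 0.62, 0.48 ± 0.62 and -0.26 ± 0.69 log2 units at 30 minutes, 2 hours and 1 day. They turned to -0.10 and -0.09 at 30 minutes and 2 hours without LG15, and to 0.01 at 1 day without the library labelled LG04 at 1 day. In plain CPM, C1QB was higher in 1 of 4 animals at each of these times, and at 2 hours in 2 of 4 once globin was left out. Of 8 tissue macrophage markers, 7 had few counts per library: MRC1 0 to 3, TIMD4 0 to 3, LYVE1 0 to 4, CD5L 0 to 5, MARCO 0 to 9, VSIG4 0 to 11 and FOLR2 0 to 26. The remaining one, SLC40A1, had 59 to 3016 counts in every library. The summed CPM of the list ranged from 20.5 to 632.2 before treatment, 46.5 to 211.5 at 30 minutes, 16.8 to 253.8 at 2 hours and 55.7 to 953.4 at 1 day. SLC40A1 made up nearly all of the highest sums, with 630.5 CPM in LG15 before treatment and 952.9 CPM in the library labelled LG04 at 1 day. Its r with C1QB within animals was -0.310 (-0.195 without that library). In the LG12 library at 30 minutes, where all 3 C1q chains and CFD were at 0, classical monocyte markers summed to 196.4 CPM, the lowest of the 16 libraries. C5AR1 (6.12 CPM), C3AR1 (9.69 CPM) and CFP (10.7 CPM) also had their lowest values there.

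Of 44 other complement genes, 43 were in the count tables, 9 had 0 counts in all 16 libraries, 19 had counts but were too low to test, and 15 were tested. The untested ones included C3 (60 counts over the 16 libraries), C5 (100 counts, the most of the 19), C2 (11) and SERPING1 (2), which encodes C1 inhibitor. Genes listed at 0 included C4A, C4B and CFB of the major histocompatibility region, where a 0 can come from how reads were aligned and counted, such as macaque reads on human models. Why they were at 0 was not tested. Of the 15 tested, 11 were higher and 4 lower than at pre-treatment at 30 minutes (median 0.15 log2 units) and at 2 hours (median 0.49), and 12 were higher and 3 lower at 1 day (median 0.28). Without the library labelled LG04 at 1 day, 16 of the list were tested and at 1 day 15 were higher and 1 lower (median 0.45), with 0 called. The edgeR test called 0 of 15 in each comparison. At an unadjusted p under 0.05 it had 1, 3 and 2 of them at 30 minutes, 2 hours and 1 day, against 2.53%, 7.43% and 13.6% of all genes.

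FCN1, FCN2 and CLU were among the 4 of these genes with the largest differences at all 3 later times. FCN1 and FCN2 encode ficolins, recognition proteins of the lectin pathway, and FCN1 is itself one of the 12 classical monocyte markers. At 2 hours FCN1 was 2.03 ± 0.58 log2 units higher than at pre-treatment (edgeR adjusted p = 0.343, unadjusted p = 0.00377) and FCN2 2.03 ± 0.65 (adjusted p = 0.463). FCN1 had 25.6, 87.3, 18.2 and 178.3 CPM at 2 hours in LG04, LG11, LG12 and LG15, against 14.6, 62.4, 5.43 and 18.6 CPM before treatment.

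CLU encodes clusterin, a secreted inhibitor of the terminal pathway that platelets also store in their granules. It was 2.80 ± 0.55 log2 units higher at 1 day than at pre-treatment (edgeR adjusted p = 0.063), and DESeq2 called it (adjusted p = 0.000327). It was higher in 4 of 4 animals as labelled, the library labelled LG04 at 1 day included. CLU had 5.65, 2.82 and 189.8 CPM at 1 day in LG11, LG12 and LG15 and 221.6 CPM in the library labelled LG04 at 1 day. Before treatment it had 0.55, 0.25, 81.3 and 10.4 CPM in LG11, LG12, LG15 and LG04. Counts were low in LG11 and LG12, with 4 and 1 before treatment and 42 and 4 at 1 day. Without that library the difference was 2.54 log2 units (edgeR adjusted p = 0.12). All 10 platelet markers were higher at 1 day, with a median of 2.74 log2 units (2.50 without that library) and 0 of 10 called, and their part in the CLU values was not tested.

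Within animals, several complement genes ran together. Centred on each animal's mean, C5AR1 and CFP had an r of 0.851 over the 16 libraries, CFD and CFP 0.729, C1QB and CFP 0.728, and C3AR1 and C5AR1 0.718. CD55 and CD59 had an r of 0.738 with each other, while C1QB and CD55 had -0.659. With classical monocyte markers the r was 0.926 for C5AR1, 0.796 for CFP and 0.747 for C3AR1, against 0.005 for CR1 and -0.415 for CD55. Without the library labelled LG04 at 1 day these were 0.923, 0.759, 0.694, 0.015 and -0.280. With non-classical monocyte markers it was 0.853 for CFP, 0.825 for C5AR1 and 0.806 for C3AR1 (0.853, 0.867 and 0.682 without that library). CR1 had its largest r in size with NK-cell markers, -0.567. It had 0.430 with SLC40A1, the 1 tissue macrophage marker tested, 0.412 with B-cell markers and 0.372 with platelet markers. Without the library labelled LG04 at 1 day these 3 values were 0.468, 0.442 and 0.426. The points of each r share animals and cell composition, and the counts of C1QB and CFD are low.

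**Figure D4:**
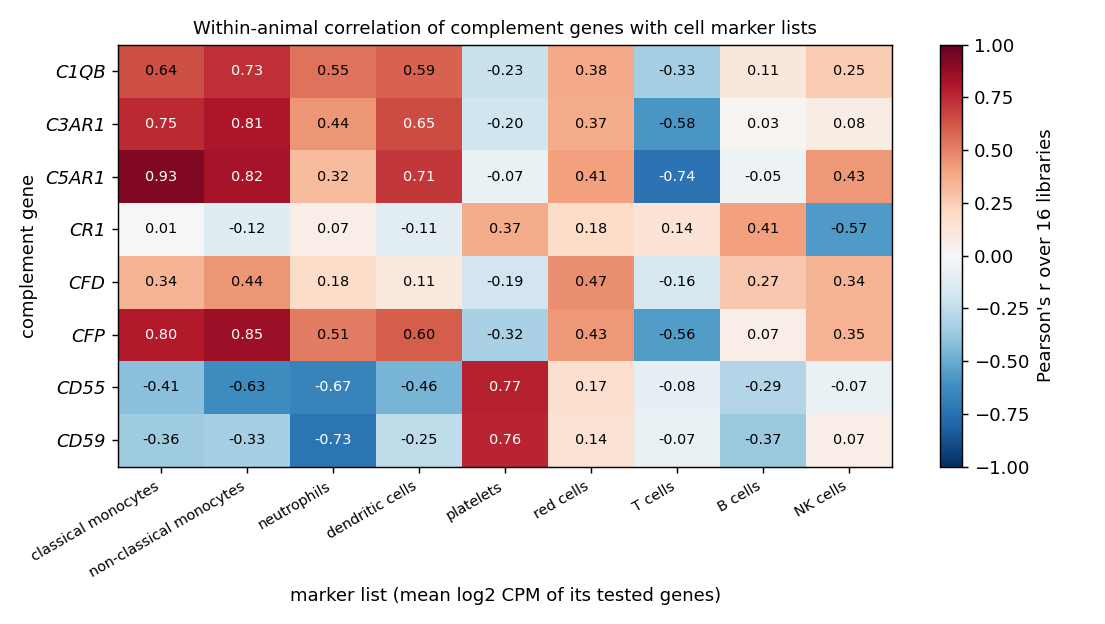
Pearson's r between each complement gene tested (rows) and the mean log2 CPM of 9 cell marker lists (columns), within animals over 16 libraries, from -1 (blue) to 1 (red). C5AR1, CFP and C3AR1 are red with monocyte markers, CD55 and CD59 are red with platelet markers, and CR1 is pale in most columns. The tissue macrophage list, of which only SLC40A1 was tested, is not shown.

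Among all genes tested, those with the course most like each gene were named by the same r. For C5AR1 they were ACPP (0.977), MS4A6A (0.968) and NOTCH2NL (0.966), and for C3AR1 GLB1 (0.943), CAT (0.935) and APLP2 (0.932). For CFP they were FGD2 (0.976), LILRB3 (0.975) and FES (0.975), and for CFD PTPRCAP (0.971), TERC (0.971) and PNPLA6 (0.960). CR1 was most like ORC3 (0.846), its neighbour CR1L (0.843) and CYSLTR2 (0.813). CD55 was most like GK (0.949), PHEX (0.934) and PRC1 (0.926), CD59 like PAIP2 (0.938), NUTF2 (0.922) and GALNT1 (0.918), and C1QB like SNX20 (0.897), ODF3B (0.895) and HHIPL1 (0.879). Each of these is the top 3 of 11545 genes, so their r values were chosen for being high. Without the library labelled LG04 at 1 day, PRC1 ranked 27 for CD55 and APLP2 ranked 10 for C3AR1. The other genes named stayed in the top 8.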

How the data were processed

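Mononuclear cells were separated from EDTA blood and ribosome-depleted RNA was made into stranded libraries and read for 75 cycles from 1 end, per the labels' protocols. The deposited counts are whole numbers per gene and not normalized. The deposited FPKM tables hold values scaled by the authors to gene length and library size and were used only for levels between genes. Per the submitters' processing notes, FastQC, Trimmomatic, STAR, HTSeq, DESeq and edgeR were used with the human builds GRCh37 and hg19; the sources used here give no versions, settings or strand options. The 24369 entries were joined to 23602 symbols by summing. Several entries were held by 766 symbols, and 653 of these were at 0 in all libraries. Of 24 series-wide count columns 23 equalled the library they are named for; the 2 hour column of LG04 held its 1 day library, so the tables per animal were used. The smallest chi-square per gene over 120 pairs of libraries was 5.15.

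CPM is the count over the library total; 3 counts corresponded to 0.35 to 2.12 CPM, a floor that covers counting error only. Genes were tested with edgeR 4.0.16 in R 4.3.3 (quasi-likelihood F test, TMM, filterByExpr, terms for animal and time, leaving 9 residual degrees of freedom), adjusted by Benjamini-Hochberg over 11545 genes at 0.05. The fit was also run on counts simulated with animal means and spread estimated from these data. That run checks the code and does not show how well the fit suits these libraries. SE is the log2 fold change over the root of F. DESeq2 1.42.0, other scalings and filters and libraries left out were alternatives. Samples are paired because each animal gave blood at all times; the median correlation of deviations within an animal was 0.553, with 23 of 24 pairs over 0.1. P-values rest on the scatter left after the animal and time terms in these 4 animals, estimated in part across genes. For r values, log2 CPM used a prior count of 1. Named were the 10 genes, the 4 of a list of other complement genes with the largest difference from pre-treatment at each time (1 of them is not reported here), and the 3 genes most like each. Members, lists and tests were chosen with earlier results of these data known.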

Additional observations from a re-analysis of the deposited data

Results flagged for a closer look

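In 6 of 40 groups of 4 libraries (10 genes at 4 times), 1 library lay apart from the other 3 by Dixon's test of the gap over the range at the 95% level. Chance flags about 1 in 20 groups of independent, normally distributed values. The 40 groups hold plain CPM of the same 4 animals at each time, so the 6 cannot be set against that rate. C3AR1 in LG11 was 105.1 CPM at 2 hours, where the next library had 33.2, and 91.0 CPM at 1 day, where the next had 17.6. C5AR1 in LG11 was 234.5 CPM at 1 day, with 51.5 CPM next to it. CFD in LG15 was 14.8 CPM at 2 hours, with 2.21 CPM next to it, and CFP in the same library was 293.1 CPM, with 93.7 CPM next to it. CD55 in LG15 before treatment was 162.4 CPM, with 70.1 CPM next to it.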

How the results depend on the processing

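The count of complement genes called was 0 in all 6 comparisons under each of 11 alternatives, the fit with no replicate block included. Between single times the smallest adjusted p was 0.25 (edgeR without LG15, CR1 at 1 day against pre-treatment). Over the 4 times DESeq2 gave CR1 an adjusted p of 0.214. Of 440 refitted log2 fold changes 24 had the other sign, none of them called, and for 23 of 40 changes no alternative turned the sign. Without the replicate block CFP at 1 day was -0.20. Without the library labelled LG04 at 1 day C1QB at 1 day was 0.010. Without the 4 shallowest libraries, at 2 hours against 30 minutes C1QB was -0.45 and CFP -0.33, and CR1 at 1 day against 2 hours was -0.13. With DESeq2 CFD at 2 hours against 30 minutes was 0.46. Leaving out each animal in turn gave ranges across 0. At 30 minutes they were -0.10 to 0.59 for C1QB, -0.16 to 0.43 for CFP and -0.37 to 0.058 for CD59. At 2 hours they were -0.086 to 0.85 for C1QB, -0.029 to 0.31 for CR1, -2.77 to 0.20 for CFD and -0.24 to 0.32 for CD59. At 1 day they were -0.53 to 0.031 for C1QB, -0.027 to 0.36 for C3AR1, -1.76 to 0.67 for CFD and -0.39 to 0.47 for CFP. At 2 hours against 30 minutes they were -0.088 to 0.26 for C1QB and -1.18 to 0.85 for CFD, and at 1 day against 2 hours -0.014 to 0.70 for CD55 and -0.023 to 0.33 for CD59. The causes were not tested. Of all genes, 26 were called at 1 day, against 387 with DESeq2, 70 with no filter, 3 without the replicate block, 0 without the 4 shallowest libraries and 1 to 67 leaving out an animal. By CPM, which is not per length, 8 of 10 level ranks differed, CD55 being first and CFP next. C1q counts of 0 to 86 per library limit its values.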
